A study of Mus musculus with 15 samples.

Results

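The genes described here are the mouse enzymes that add methyl groups to histones and take them off: the SET-domain lysine methyltransferases (Kmt, Setd, Setdb, Ehmt, Ezh, Suv39h and Nsd genes) with the partners Eed and Suz12, the H3K79 methyltransferase Dot1l, the arginine methyltransferases (Prmt) and the lysine demethylases (Kdm). Members were chosen by gene symbol alone, from probe sets that the array annotation assigns to a single symbol. The rule found 55 genes, measured by 156 probe sets, among 18193 genes with such a probe set. For each gene the probe set of highest mean over all arrays stands for the gene, and 48 of the 55 members lay above the filter on low signal, among 12028 genes tested. The other 7, Kdm4b, Kdm4c, Ehmt2, Prmt6, Prmt7, Prmt8 and Prmt9, lay below it and were not tested. Suv39h1 was not analysed here.

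Methylation of histone lysines marks chromatin by position. H3K4 methylation marks promoters and enhancers, H3K36 methylation the bodies of transcribed genes, H3K9 methylation heterochromatin and repeats, and H3K27 methylation, placed by Polycomb repressive complex 2 (PRC2), silenced developmental genes. In the growing oocyte these marks guide where DNA methylation, including that of imprinted genes, is laid down. The fully grown oocyte transcribes little, and maturation to the egg proceeds on stored mRNA, part of which is degraded or changes its poly(A) tail.

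RNA came from oocytes of B6D2F1 hybrid females, all primed for 48 h with pregnant mare serum gonadotropin (PMSG), which stimulates follicle growth. Adult females of 7 to 8 weeks gave germinal vesicle (GV) oocytes, the immature stage with an intact nucleus (n = 2), metaphase II (MII) oocytes matured in vivo after human chorionic gonadotropin (n = 3), and MII oocytes matured from GV oocytes in culture for 16 h (n = 2). MII oocytes of females at day 26 (d26) were matured in vivo (n = 2) or in culture (n = 3), and those of females at day 20 (d20) in culture (n = 3). Each array held the poly(A) RNA of a pool of 150 oocytes freed of cumulus cells, so a lower level in every oocyte and fewer oocytes carrying the RNA cannot be told apart. Immature oocytes were collected from adults only, so the MII groups at d26 and d20 had no GV group of their own age.

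The 15 arrays differed in brightness. In 4 dim arrays (replicate 1 of adult in vivo, replicate 2 of adult in vitro, replicates 2 and 3 of d26 in vitro MII) 2615 to 3042 probe sets exceeded an intensity of 200, against 4882 to 9819 in the others, and the 2 GV arrays were the brightest with 9696 and 9819. Levels below are therefore log2 intensities after quantile normalization, which gives every array the same distribution, and a difference is relative to the rest of the array. Each member's difference from GV was also computed from the intensities as deposited and after shifting arrays to a common median. The 12 oocyte marker genes were at or above the filter level in 11 or 12 per array in every group, and no array duplicated another.

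The promoters of 3 members that fell at MII and of Kdm7a, which was higher after quantile normalization, are printed to show how widely their number of GC boxes ranged. They come from RefSeq (GRCm38.p6), run from 250 bases before to 50 after the annotated start, most upstream where there are several, and are written 5′ to 3′ on the gene's strand. Capitals mark the GC box GGGCGG, the core of Sp-family sites, or its complement CCGCCC, searched on both strands with overlaps counted. They are for Setd4 chr16:93603766-93604065, minus strand, with 0 boxes, for Setd3 chr12:108179235-108179534, minus strand, with 7, for Kdm2b chr5:122989050-122989349, minus strand, with 1, and for Kdm7a chr6:39206724-39207023, minus strand, with 3.
Setd4: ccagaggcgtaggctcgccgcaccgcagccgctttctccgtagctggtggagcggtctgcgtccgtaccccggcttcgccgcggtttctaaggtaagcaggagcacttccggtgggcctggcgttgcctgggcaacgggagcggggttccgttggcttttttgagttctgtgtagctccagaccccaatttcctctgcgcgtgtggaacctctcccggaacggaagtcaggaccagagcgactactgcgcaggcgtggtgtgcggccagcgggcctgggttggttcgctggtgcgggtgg
Setd3: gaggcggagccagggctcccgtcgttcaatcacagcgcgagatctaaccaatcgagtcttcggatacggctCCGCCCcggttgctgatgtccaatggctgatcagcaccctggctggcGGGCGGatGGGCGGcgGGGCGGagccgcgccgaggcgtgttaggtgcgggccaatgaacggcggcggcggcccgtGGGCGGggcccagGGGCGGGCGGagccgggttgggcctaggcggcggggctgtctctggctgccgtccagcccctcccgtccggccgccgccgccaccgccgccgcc
Kdm2b: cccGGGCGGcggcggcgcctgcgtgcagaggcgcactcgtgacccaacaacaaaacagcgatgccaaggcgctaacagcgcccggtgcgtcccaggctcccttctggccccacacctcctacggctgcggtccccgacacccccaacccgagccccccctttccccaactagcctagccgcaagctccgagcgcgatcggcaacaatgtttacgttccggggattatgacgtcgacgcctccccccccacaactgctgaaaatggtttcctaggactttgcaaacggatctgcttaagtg
Kdm7a: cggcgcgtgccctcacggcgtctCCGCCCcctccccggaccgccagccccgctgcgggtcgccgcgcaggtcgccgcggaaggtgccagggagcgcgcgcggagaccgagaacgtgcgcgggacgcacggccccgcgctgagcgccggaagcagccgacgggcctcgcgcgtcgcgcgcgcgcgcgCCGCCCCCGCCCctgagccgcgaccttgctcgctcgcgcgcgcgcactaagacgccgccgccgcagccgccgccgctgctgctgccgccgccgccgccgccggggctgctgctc
Of the 55 members 44 had an entry in the promoter table. A GC box was present in 61.4% of these 44 promoters, against 35.9% of 27025 genes, and the median number of CpG dinucleotides was 24 against 7. CCAAT was present in 43.2% against 38.0%, the E-box CANNTG in 59.1% against 72.1% and TATAAA in 4.55% against 14.2%, each searched on both strands.

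The first question was which members differed between GV and MII oocytes of adults. Relative to the rest of the array, 5 members fell. Setd4, Kdm2b, Nsd1 and Setd3 fell after both in vivo and in vitro maturation, and Setdb1 fell after in vitro maturation. Each of these falls was also called with the intensities as deposited and after median scaling. In those settings the median of all tested probe sets was negative, and a larger share of all genes was called lower. With the mean over a gene's probe sets, the calls of Nsd1, of Setd3 in vivo and of Setdb1 were lost. Leaving out 1 array could end those of Setd3 in vivo and Setdb1. After quantile normalization more members rose than fell, among them the demethylases Kdm3a, Kdm3b and Kdm7a and the arginine methyltransferase Prmt3, but none of the rises was called with the intensities as deposited, a setting in which 0.0915% and 0.0499% of all genes were called higher and 16.4% and 29.2% lower in vivo and in vitro.

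In the test across all probe sets (limma, with Benjamini-Hochberg adjustment within a comparison, called below an adjusted p of 0.05), 15 of 48 tested members (31.2%) were higher and 4 (8.33%) lower in adult in vivo MII oocytes than in GV oocytes. Among all genes tested 18.3% were called higher and 12.3% lower. In adult in vitro MII oocytes 15 members (31.2%) were higher and 5 (10.4%) lower, against 18.4% and 12.9% of all genes. The median member differed from GV by 0.66 on the log2 scale in vivo and 0.55 in vitro, where the median of all genes differed by 0.26 and 0.13. The 2 comparisons share the GV arrays, so their values are given side by side and are not independent. Whether the pools of a group came from different animals is not stated in the labels, so the p-values measure only how these samples spread, which may be technical.

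The split into higher and lower calls depended on the scaling. With intensities as deposited 0 members were called higher and 4 lower in vivo, and 0 higher and 9 lower in vitro, of 47 tested, beside the shares of all genes just given (0.0915% and 16.4%, and 0.0499% and 29.2%). Median scaling gave 3 higher and 4 lower in vivo, against 6.58% and 18.5% of all genes, and 4 higher and 8 lower in vitro, against 7.03% and 21.4%. Rises as deposited were thus rare over the whole array, and 0 among the members says nothing particular to them. The probe sets tested shifted with the scaling too, with a median difference from GV in vivo of 0.24 after quantile normalization, -0.98 as deposited and -0.21 after median scaling, and in vitro of 0.13, -1.94 and -0.53. Against the medians after quantile normalization, the median member stood 0.42 higher in both comparisons. Without the 4 dim arrays, 20 members were higher and 4 lower in vivo, against 26.2% and 16.8% of all genes, and 17 were higher and 5 lower in vitro, against 22.4% and 16.4%. That fit kept 1 adult in vitro array, which is assumed to vary like the other groups, and this holds for every in vitro adult value given without the dim arrays.

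**Figure D1:**
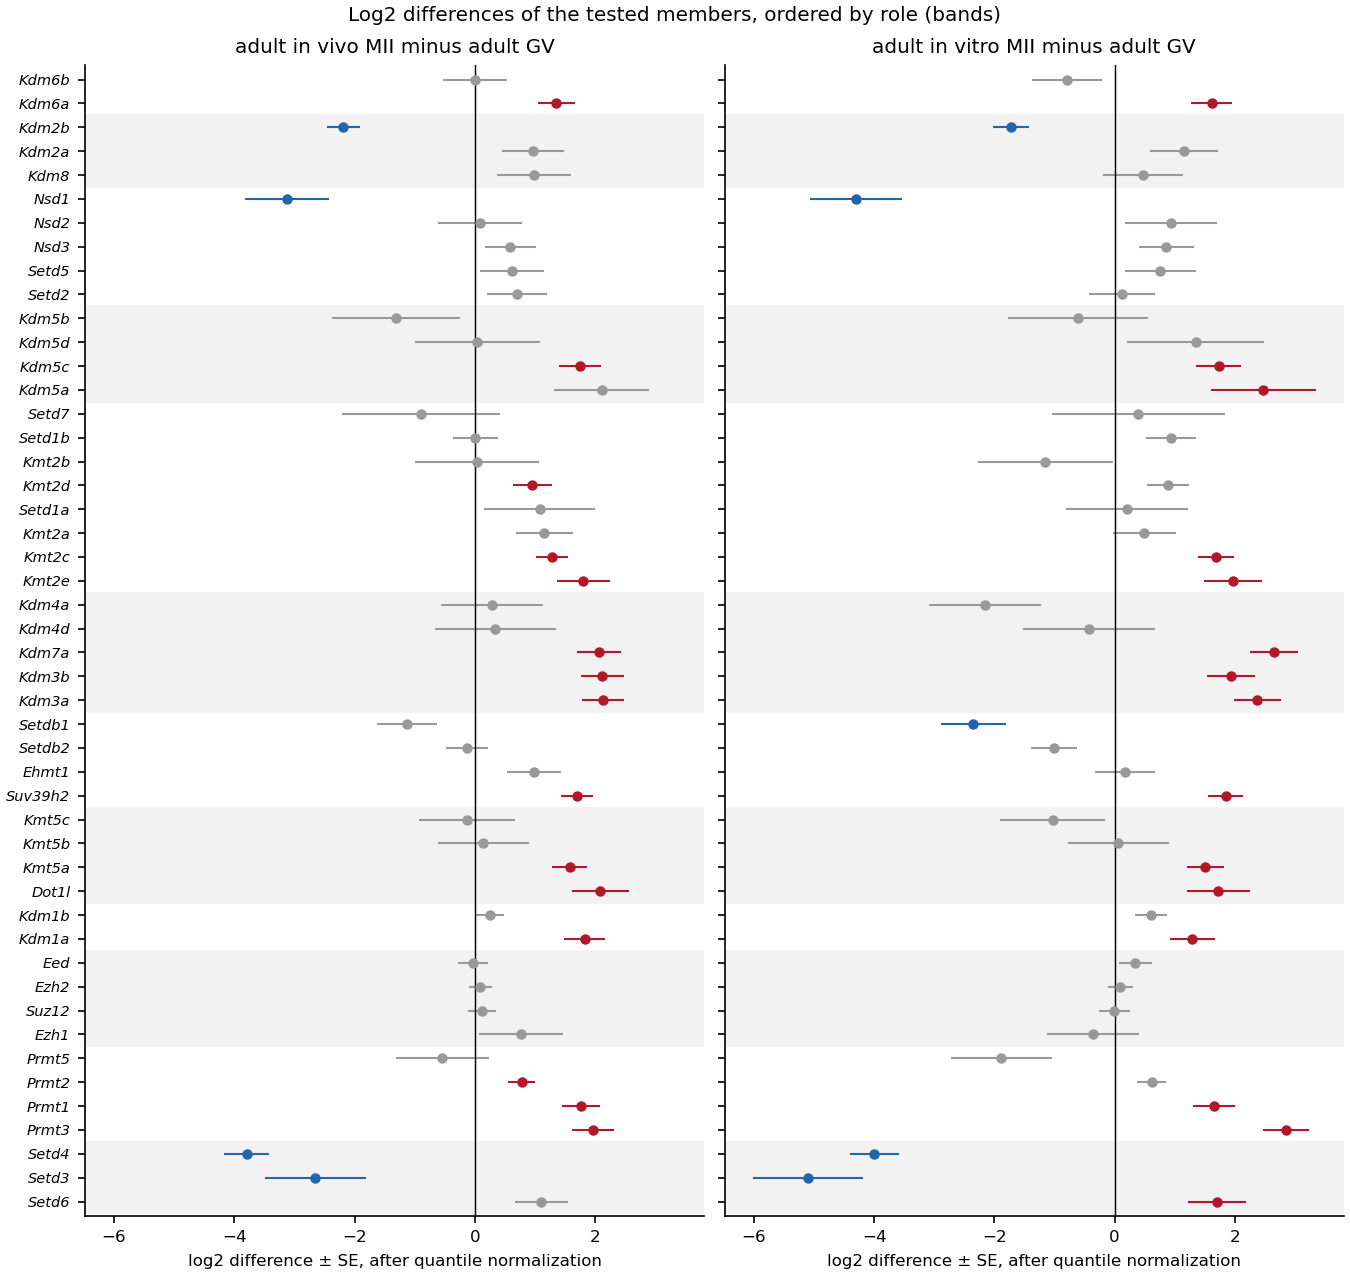
Log2 difference from adult GV oocytes (x axis, log2 units after quantile normalization, point ± SE) for each of the 48 tested members (rows, in bands by role), in vivo on the left and in vitro on the right. Red points were called higher, blue points lower and grey points not called (adjusted p 0.05 or above, limma). Setd4, Kdm2b, Nsd1 and Setd3 lie far to the left in both panels and Setdb1 in the right panel, and all of the red points lose their call with intensities as deposited.

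The member with the strongest fall in vivo was Setd4, which encodes a SET-domain methyltransferase. Its level was 13.34 and 13.02 in the GV arrays, 9.03, 9.95 and 9.19 in adult in vivo MII and 9.50 and 8.87 in adult in vitro MII. In the 13 MII arrays of all ages it ran from 8.38 to 10.31 with a median of 9.19, so every MII array was well below both GV arrays. The difference was -3.79 (SE 0.37, adjusted p = 1.09e-05, limma) in vivo and -3.99 (SE 0.41, adjusted p = 1.65e-05) in vitro. It was -4.12 and -5.28 as deposited and -3.35 and -3.86 after median scaling, and its adjusted p stayed at or below 0.000644 without any 1 array.

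Kdm2b encodes an H3K36 demethylase that also brings a Polycomb complex to unmethylated CpG islands. Its level was 12.48 and 12.30 in the GV arrays, 10.29, 10.22 and 10.11 in vivo and 10.92 and 10.42 in vitro, and 9.47 to 10.92 over all 13 MII arrays (median 10.22). The difference was -2.19 (SE 0.27, adjusted p = 5.54e-05, limma) in vivo and -1.73 (SE 0.30, adjusted p = 0.000604) in vitro. A second Kdm2b probe set fell by 2.80 (adjusted p = 1.61e-05) and 2.33 (adjusted p = 0.000132). The call for Kdm2b held without any 1 array and under each scaling.

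Nsd1 encodes an H3K36 methyltransferase. It stood at 9.56 and 9.33 in the GV arrays, 5.22, 7.05 and 6.69 in vivo and 6.51 and 3.78 in vitro. The lowest value in each adult MII group came from its dim array, and the highest of the 13 MII arrays, 7.19, was still below both GV arrays. Nsd1 differed by -3.13 (SE 0.70, adjusted p = 0.0036, limma) in vivo and by -4.30 (SE 0.76, adjusted p = 0.000751) in vitro. Without the dim arrays the differences were -2.53 (adjusted p = 0.000248) and -2.90 (adjusted p = 0.000552). A second Nsd1 probe set differed by -0.29 and -0.17 and was not called, and the mean over the gene's probe sets was not called (adjusted p = 0.347 and 0.227).

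Setd3, whose product methylates a histidine of actin although the gene is named for its SET domain, stood at 7.82 and 7.49 in the GV arrays. It was 2.84, 6.41 and 5.75 in adult in vivo MII and 3.24 and 1.88 in adult in vitro MII, with the lowest value of each group in the dim array. It differed by -2.66 (SE 0.84, adjusted p = 0.0286, limma) in vivo and by -5.10 (SE 0.92, adjusted p = 0.000846) in vitro. The in vivo call was lost without GV replicate 1 (adjusted p = 0.156), GV replicate 2 (0.109) or in vivo replicate 1 (0.0683), when only the arrays compared were fitted (0.105) and with the mean over its probe sets (0.125). The in vitro call held without any 1 array, and without all dim arrays the differences were -1.63 (adjusted p = 0.00861) and -4.67 (adjusted p = 9.71e-05).

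Setdb1 encodes the H3K9 methyltransferase that silences endogenous retroviruses. Its level was 10.06 and 9.93 in the GV arrays, 7.96, 9.17 and 9.44 in vivo and 8.16 and 7.13 in vitro, and every one of the 13 MII arrays (7.03 to 9.44) was below both GV arrays. The in vitro difference of -2.35 (SE 0.54, adjusted p = 0.00466, limma) was called, and the in vivo difference of -1.13 (SE 0.50, adjusted p = 0.112) was not. Without adult in vitro replicate 2 the in vitro adjusted p was 0.0655, and the mean over its probe sets differed by 0.25 (adjusted p = 0.856).

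**Figure D2:**
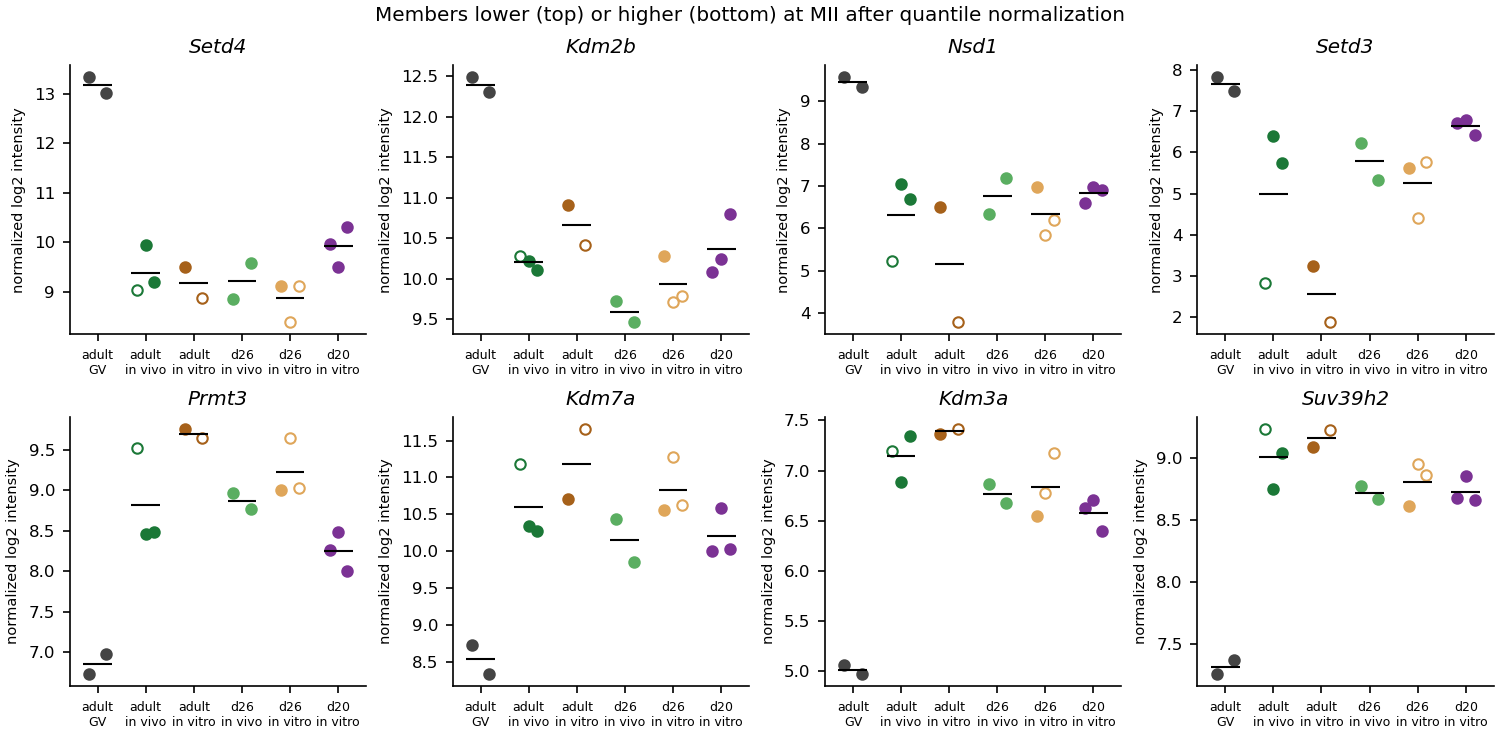
Normalized log2 intensity (y axis, a separate scale for each gene) of each array in the 6 groups (x axis), for 4 members that were lower at MII (top) and 4 that were higher after quantile normalization (bottom). Each point is an array of 150 pooled oocytes, open points are the 4 dim arrays and bars are group means. In each panel both GV arrays lie apart from all 13 MII arrays; the rises in the bottom row were not called with intensities as deposited.

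These 5 members were the ones whose 13 MII arrays all lay below both GV arrays (10.4% of 48, against 17% of all tested genes). In another 16 members all MII arrays lay above both GV arrays (33.3%, against 20.6% of all tested genes). Their separation in quantile-normalized levels covers the d26 and d20 groups, which were compared with adult GV oocytes only.

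Of 5 tested H3K9 and H3K36 demethylases of the Kdm3, Kdm4 and Kdm7 families, 3 were called higher in each comparison and 0 lower. Their median difference was 2.07 in vivo and 1.94 in vitro, beside 0.26 and 0.13 over all genes. For this group of members and those that follow, the shares over all genes are those given above. They are 18.3% higher and 12.3% lower in vivo, and 18.4% and 12.9% in vitro. Kdm3a, an H3K9 demethylase, stood at 5.06 and 4.97 in the GV arrays, 7.19, 6.89 and 7.35 in vivo and 7.37 and 7.41 in vitro. It differed by 2.13 (SE 0.35, adjusted p = 0.000437, limma) and 2.38 (SE 0.38, adjusted p = 0.000398). The groups did not overlap after quantile normalization, which held for 58.4% of all tested genes in vivo and 68.7% in vitro. As deposited the differences were 0.43 (adjusted p = 0.835) and -0.32 (adjusted p = 0.8).

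Its paralog Kdm3b stood at 5.20 and 5.05 in the GV arrays, 7.22, 7.42 and 7.10 in vivo and 6.76 and 7.36 in vitro, differing by 2.12 (SE 0.36, adjusted p = 0.00053, limma) and 1.93 (SE 0.39, adjusted p = 0.00189). A second Kdm3b probe set, at 0.44 and 0.65, was not called. Kdm7a, a demethylase of H3K9 and H3K27 whose promoter is printed above, stood at 8.73 and 8.33 in the GV arrays, 11.18, 10.34 and 10.28 in vivo and 10.71 and 11.65 in vitro. It differed by 2.07 (SE 0.37, adjusted p = 0.000763) and 2.65 (SE 0.40, adjusted p = 0.000266), and another of its probe sets by 2.89 (adjusted p = 1.7e-05) and 2.93 (adjusted p = 3.89e-05). Its remaining tested probe set was not called in either comparison, at 1.54 (adjusted p = 0.0706) and 1.29 (adjusted p = 0.164), and stood at 0.48 and -0.10 after median scaling and -0.29 and -1.51 as deposited. Kdm7a was called after median scaling too, at 1.52 (adjusted p = 0.0103) and 2.01 (adjusted p = 0.00307), and not as deposited, at 0.75 and 0.60.

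Kdm4a and Kdm4d, which act on trimethylated H3K9, were not called. Kdm4a stood at 5.62 and 5.98 in the GV arrays, 4.39, 7.57 and 6.30 in vivo and 4.50 and 2.79 in vitro, a difference of 0.29 (SE 0.85, adjusted p = 0.859, limma) and -2.16 (SE 0.93, adjusted p = 0.103). The in vivo arrays spanned both sides of the GV values. In vitro Kdm4a was called lower as deposited (-4.68, adjusted p = 0.021) and after median scaling (-3.27, adjusted p = 0.026).

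Of the LSD1 family, Kdm1a, which removes mono- and dimethylation from H3K4, stood at 9.34 and 8.39 in the GV arrays, 10.29, 11.09 and 10.69 in vivo and 10.04 and 10.27 in vitro. It differed by 1.83 (SE 0.34, adjusted p = 0.00109, limma) in vivo and by 1.29 (SE 0.38, adjusted p = 0.0181) in vitro. The in vitro call was lost without GV replicate 2 (adjusted p = 0.234) or adult in vitro replicate 2 (0.103), without the dim arrays (0.06), when only the arrays compared were fitted (0.0605) and with variances fitted without a trend (0.0551), and as deposited the in vitro difference was -0.90. Kdm1b, the family member required for imprinting in growing oocytes, stood at 11.14 and 10.67 in the GV arrays, 11.22, 11.04 and 11.19 in vivo and 11.53 and 11.49 in vitro, and was not called, at 0.24 (SE 0.24, adjusted p = 0.524) and 0.60 (SE 0.26, adjusted p = 0.104).

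Of the 4 H3K4 demethylases of the Kdm5 family, 1 was higher in vivo and 2 in vitro. Kdm5c stood at 8.27 and 7.80 in the GV arrays and from 9.17 to 10.53 (median 9.90) in the 13 MII arrays, a difference of 1.75 (SE 0.34, adjusted p = 0.00154, limma) in vivo and 1.73 (SE 0.38, adjusted p = 0.00305) in vitro. As deposited these were 0.16 and -0.73. Kdm5a, at 3.17 and 2.29 in the GV arrays and 3.06 to 6.48 at MII, was called in vitro at 2.47 (SE 0.87, adjusted p = 0.0457). Its lower GV value and lowest MII value lay below the filter level of 3.07, which it passed by its mean over all arrays. Without that filter the call was lost (adjusted p = 0.0796). It was also lost when any 1 array was left out (adjusted p 0.0505 to 0.252) except adult in vivo replicates 1 and 2, d26 in vivo replicate 2 and d26 in vitro replicate 2. Kdm5b, at 4.68 and 4.76 in the GV arrays, ran from 0.89 to 5.05 at MII. Of the 13 MII arrays 11 were below both GV arrays and 2 above, and Kdm5b was not called. Kdm5d, a Y-linked gene that the female genome lacks, also passed the filter on low signal, at 2.64 and 3.27 in the GV arrays and 0.98 to 4.87 at MII, and was not called.

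Of the H3K27 demethylases, Kdm6a, the X-linked member, stood at 9.23 and 8.84 in the GV arrays, 10.51, 10.22 and 10.44 in vivo and 10.55 and 10.74 in vitro. It differed by 1.36 (SE 0.31, adjusted p = 0.00431, limma) and 1.61 (SE 0.34, adjusted p = 0.00247), and the in vivo call was lost without GV replicate 2 (adjusted p = 0.0699). As deposited it differed by 0.12 and -0.45. Kdm6b stood at 11.27 and 11.32 in the GV arrays and 9.70 to 12.03 at MII, on both sides of them, and was not called at -0.00 (SE 0.53) and -0.79 (SE 0.58). Of the H3K36 demethylases beside Kdm2b, Kdm2a and Kdm8 were not called, with differences of 0.97 and 0.98 in vivo and 1.16 and 0.47 in vitro.

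Among the 8 H3K4 methyltransferases, 3 were higher in vivo (Kmt2c, Kmt2d and Kmt2e) and 2 in vitro (Kmt2c and Kmt2e), with 0 lower. Kmt2c, which marks enhancers, stood at 10.39 and 10.83 in the GV arrays and 11.55 to 12.67 in the MII arrays, with no overlap. It differed by 1.28 (SE 0.27, adjusted p = 0.00255, limma) and 1.68 (SE 0.30, adjusted p = 0.000744) and was called after median scaling as well, at 1.36 and 1.77, but not as deposited, at 0.59 and 0.36. Kmt2d, its paralog, stood at 10.38 and 10.22 in the GV arrays, 10.71, 11.47 and 11.60 in vivo and 11.53 and 10.85 in vitro. Its in vivo difference of 0.96 (SE 0.32, adjusted p = 0.0382) was lost without either GV array, in vivo replicates 2 or 3 or any of the 3 d20 arrays (adjusted p 0.0503 to 0.206).

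Kmt2e, whose SET domain is thought to have no enzyme activity, stood at 5.23 and 5.24 in the GV arrays and 5.60 to 7.54 at MII, a difference of 1.81 (SE 0.45, adjusted p = 0.00705, limma) and 1.97 (SE 0.49, adjusted p = 0.00707). The in vivo call was lost without GV replicate 1 (adjusted p = 0.0546) or 2 (0.0578), and as deposited the differences were -0.03 and -0.85. Kmt2b, the main H3K4 methyltransferase of the oocyte, stood at 7.82 and 8.17 in the GV arrays, 5.87, 9.51 and 8.71 in vivo and 7.69 and 5.99 in vitro. Its values spread to both sides of GV and it was not called, at 0.04 (SE 1.02, adjusted p = 0.987) and -1.15 (SE 1.12, adjusted p = 0.507). Setd1b, another oocyte H3K4 methyltransferase, stood at 5.96 and 6.41 in the GV arrays, 6.06, 6.18 and 6.34 in vivo and 6.96 and 7.28 in vitro, and was not called at 0.01 and 0.93, while a second Setd1b probe set fell by 3.75 in vitro (adjusted p = 0.00265), called under each scaling. Kmt2a, Setd1a and Setd7 were not called.

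Of the 4 tested H3K9 methyltransferases, Suv39h2, which trimethylates pericentric heterochromatin, was higher in both comparisons, and Setdb1 was lower in vitro, as given above. Suv39h2 stood at 7.26 and 7.37 in the GV arrays, 9.23, 8.75 and 9.04 in vivo and 9.09 and 9.23 in vitro, with a span of 8.61 to 9.23 over the 13 MII arrays. It differed by 1.69 (SE 0.26, adjusted p = 0.000301, limma) and 1.84 (SE 0.29, adjusted p = 0.000332). As deposited the differences were -0.08 and -0.87, and the gene's other probe sets differed by -0.88 and 0.30 in vivo and by -0.47 and 0.44 in vitro, all uncalled, and the mean over its probe sets was not called (adjusted p = 0.453 and 0.227). Setdb2 and Ehmt1 were not called against GV. Ehmt2, the partner of Ehmt1, lay below the filter on low signal, from 0.22 to 4.20 at MII, and was not tested.

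None of the 4 PRC2 core genes was called by the representative probe sets, at a median difference of 0.10 in vivo and 0.05 in vitro. Ezh2, the catalytic subunit, stood at 12.64 and 12.87 in the GV arrays, 12.70, 12.86 and 12.98 in vivo and 12.94 and 12.77 in vitro, a difference of 0.09 (SE 0.19, adjusted p = 0.793, limma) and 0.10 (SE 0.21, adjusted p = 0.78). Eed, which binds the finished mark, stood at 12.11 and 12.49 in the GV arrays, 12.48, 11.82 and 12.49 in vivo and 12.57 and 12.71 in vitro, a difference of -0.03 (SE 0.25) and 0.34 (SE 0.28). The groups of both genes overlapped. Ezh1 stood at 8.35 and 7.56 in the GV arrays and 7.08 to 9.75 at MII, with differences of 0.77 (SE 0.70) and -0.35 (SE 0.76).

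Suz12, the scaffold of PRC2, gave different readings by probe set. Its representative probe set stood at 11.96 and 11.54 in the GV arrays, 11.47, 12.17 and 11.95 in vivo and 11.85 and 11.64 in vitro, a difference of 0.11 (SE 0.24, adjusted p = 0.793, limma) and -0.01 (SE 0.26, adjusted p = 0.989). The other 5 tested probe sets all differed by more than 0, from 0.56 to 2.54 in vivo with 3 called and from 0.98 to 2.75 in vitro with 5 called. One of them stood at 8.11 and 8.75 in the GV arrays, 10.20, 9.82 and 9.78 in vivo and 10.37 and 10.98 in vitro, and stayed called in both comparisons when any 1 array was left out (all arrays: adjusted p = 0.00103 and 0.000126). Of the 5 in vitro calls 3 were lost without adult in vitro replicate 2, 2 of these also without GV replicate 1 and 1 without GV replicate 2, and 1 of the 3 in vivo calls was lost without either GV array or in vivo replicate 1. As deposited 0 of the 5 were called in either comparison, and after median scaling 1 was called in each. The mean over all Suz12 probe sets was 1.82 higher in vitro (adjusted p = 0.00271).

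**Figure D3:**
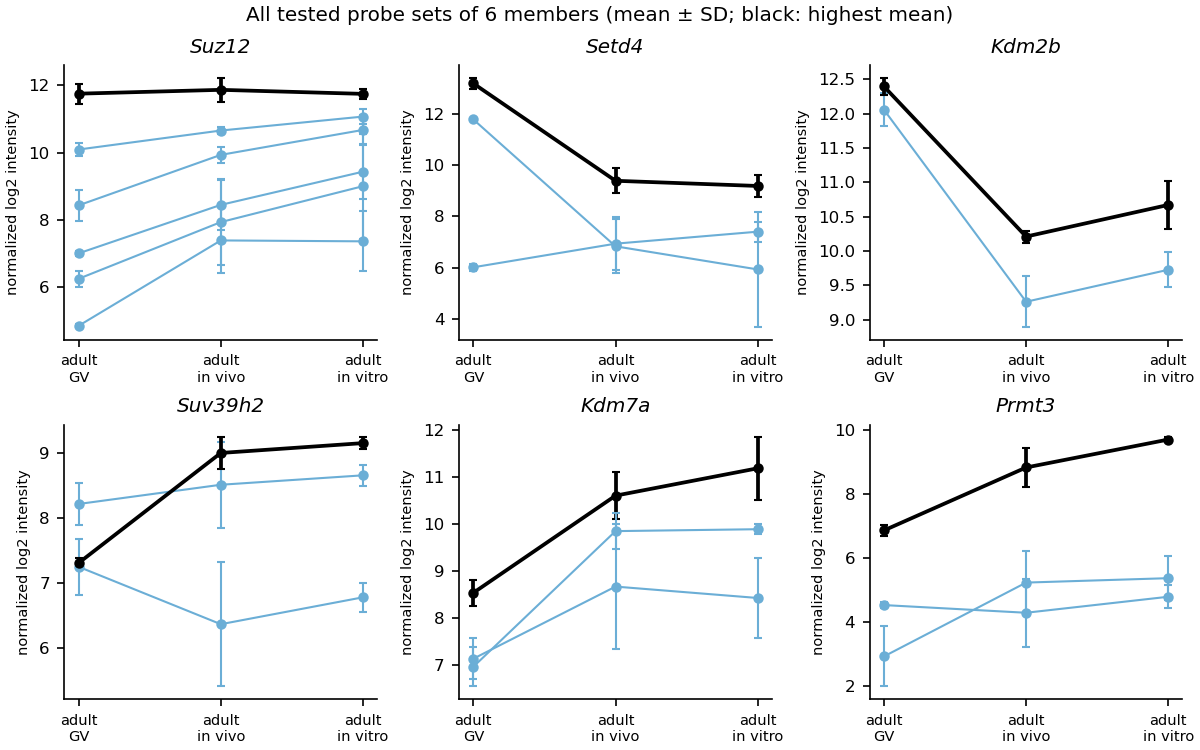
Mean ± SD of normalized log2 intensity (y axis) of every tested probe set of 6 members in the 3 adult groups (x axis; GV n = 2, in vivo MII n = 3, in vitro MII n = 2), with the representative probe set in black and the others in blue. Both Kdm2b probe sets are lower at MII and 2 of the 3 of Kdm7a were called higher in each comparison (the other was not, and as deposited 0 were), while the black line of Suz12 is flat above 5 blue lines that are higher at MII, a difference not called with intensities as deposited, and another probe set of Setd4 does not share the fall.

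Probe sets of the same gene often differed. Of 27 members with 2 or more tested probe sets, all pointed the same way in 17 in vivo and 12 in vitro, and 0 members were called in both directions within a comparison. Setd4 is an example, with a second probe set at 11.77 and 11.78 in the GV arrays, 5.62, 7.29 and 7.59 in vivo and 7.52 and 4.34 in vitro (differences of -4.94 and -5.84, adjusted p = 0.000198 and 0.000126, limma). Another, at 6.11 and 5.92 in the GV arrays and 6.03 to 8.06 in the adult MII arrays, differed by 0.92 (adjusted p = 0.23) and 1.39 (adjusted p = 0.0873). Second probe sets of Kmt5a, Dot1l and Kdm1a differed by 0.91, 1.03 and 1.51 in vivo and by -0.44, -0.56 and -0.58 in vitro, and were not called. With the mean over all probe sets of a gene in place of 1 probe set, 8 members were called higher and 2 lower in vivo, against 11.1% and 11.7% of all genes, and 7 higher and 5 lower in vitro, against 11.3% and 12.7%, of 43 tested. Kdm7a, Kdm6a and Kmt2c kept their call in both comparisons, while the rises of Kdm5c (adjusted p = 0.681 and 0.679), Kmt2e (0.313 and 0.0861), Dot1l (0.122 and 0.634), Kdm1a (0.0563 and 0.75) and Suv39h2 (0.453 and 0.227) lost it in both. The calls of Prmt3 (0.335), Kmt2d (0.395) and Prmt2 (0.316) in vivo and of Kmt5a (0.231), Kdm3b (0.0584) and Setd6 (0.531) in vitro were lost as well. Of the falls, those of Nsd1 were lost in both, that of Setd3 in vivo and that of Setdb1 in vitro (0.856).

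The H3K36 methyltransferases had 1 of 5 members called in each comparison, the fall of Nsd1. Setd2, which trimethylates H3K36 along transcribed genes and is needed for the oocyte methylome, stood at 8.42 and 7.95 in the GV arrays, 7.95, 9.13 and 9.58 in vivo and 8.94 and 7.67 in vitro. Its values overlapped those of GV, at 0.70 (SE 0.50, adjusted p = 0.36, limma) and 0.12 (SE 0.55, adjusted p = 0.902). Without the dim arrays the in vivo difference was called, at 1.13 (adjusted p = 0.014). Nsd2, Nsd3 and Setd5 were not called, with differences from 0.09 to 0.62 in vivo and 0.76 to 0.94 in vitro.

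Of the enzymes for H4K20 and H3K79, 2 of 4 were higher in each comparison. Kmt5a, which monomethylates H4K20, stood at 7.42 and 7.43 in the GV arrays, 8.86, 9.15 and 8.98 in vivo and 8.76 and 9.11 in vitro, a difference of 1.58 (SE 0.29, adjusted p = 0.00087, limma) and 1.51 (SE 0.31, adjusted p = 0.0022). Dot1l, the H3K79 methyltransferase, stood at 6.26 and 7.00 in the GV arrays, 8.34, 8.54 and 9.28 in vivo and 8.59 and 8.13 in vitro, a difference of 2.09 (SE 0.47, adjusted p = 0.00411) and 1.73 (SE 0.52, adjusted p = 0.0217). MII arrays lay above both GV arrays for both genes, but as deposited the differences were -0.19 and -1.20 for Kmt5a and 0.19 and -1.16 for Dot1l. The Dot1l calls were lost without GV replicate 1 (adjusted p = 0.0695 in vivo and 0.176 in vitro) and, in vitro, without adult in vitro replicate 1 (0.112). Kmt5b and Kmt5c, which add further methyl groups to H4K20, were not called.

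Among the arginine methyltransferases 4 of 8 members were tested, of which 3 were higher in vivo and 2 in vitro. Prmt3, which methylates a ribosomal protein, stood at 6.73 and 6.98 in the GV arrays, 9.52, 8.47 and 8.49 in vivo and 9.76 and 9.64 in vitro. It differed by 1.97 (SE 0.35, adjusted p = 0.000766, limma) and 2.84 (SE 0.38, adjusted p = 0.00012), and after median scaling by 0.89 (adjusted p = 0.0839) and 1.51 (adjusted p = 0.01). As deposited Prmt3 was 0.12 and 0.10 higher and not called. Prmt1, the main source of asymmetric dimethylarginine, stood at 6.54 and 6.81 in the GV arrays and 7.62 to 8.74 at MII, a difference of 1.77 (SE 0.32, adjusted p = 0.000831) and 1.65 (SE 0.35, adjusted p = 0.00255), and of -0.14 and -1.24 as deposited.

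Prmt2 differed by 0.78 in vivo (SE 0.22, adjusted p = 0.0162, limma), a call lost without GV replicate 2 (0.153) or in vivo replicate 3 (0.0593), and by 0.61 in vitro (adjusted p = 0.075). Prmt5, the main symmetric arginine methyltransferase, stood at 4.72 and 4.95 in the GV arrays, 3.20, 4.93 and 4.76 in vivo and 4.06 and 1.84 in vitro, with the low values in dim arrays. It was not called at -0.54 (SE 0.77, adjusted p = 0.687) and -1.88 (SE 0.84, adjusted p = 0.116), but was called lower in vitro as deposited (-4.01, adjusted p = 0.0208) and after median scaling (-2.60, adjusted p = 0.0298). Without the dim arrays its in vitro difference was -0.84 (adjusted p = 0.394). Setd6, whose product methylates an NF-kappaB subunit, differed by 1.10 in vivo (adjusted p = 0.0793) and 1.70 in vitro (SE 0.48, adjusted p = 0.0156), the latter lost without either GV array or adult in vitro replicate 2 (adjusted p 0.0689 to 0.113).

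**Figure D4:**
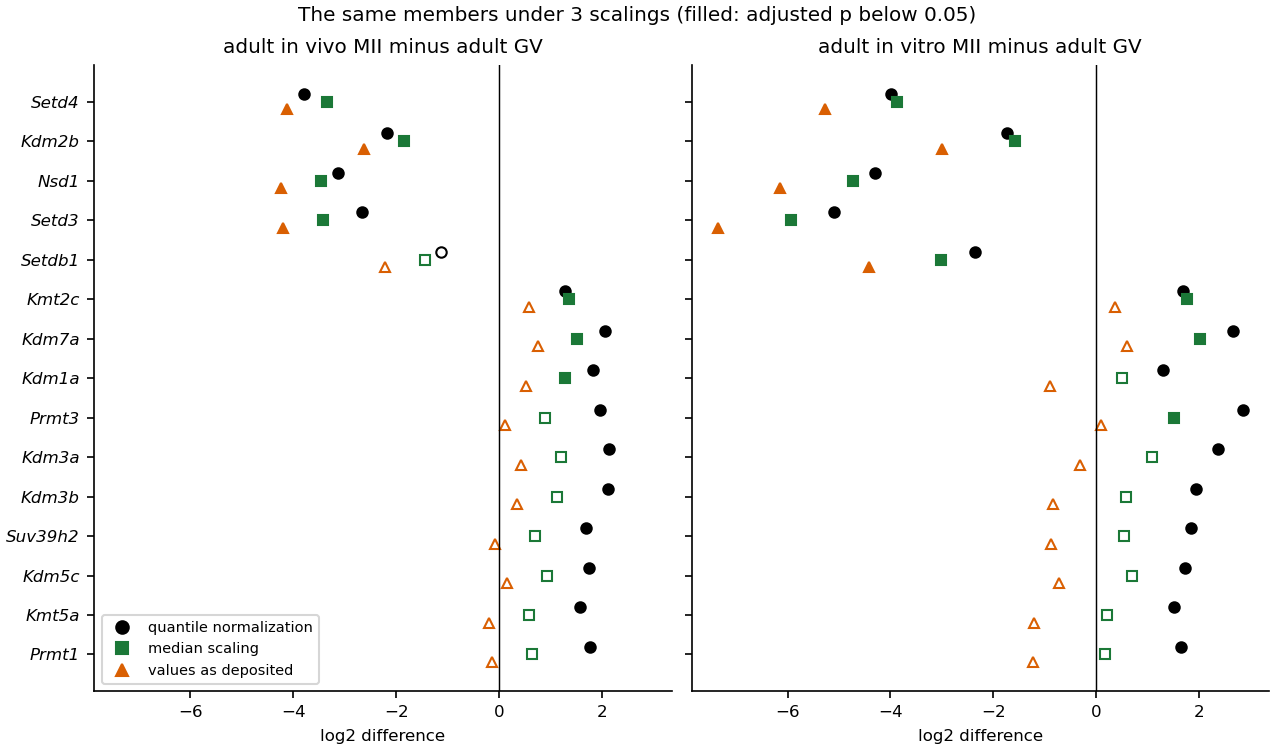
Log2 difference from adult GV oocytes (x axis, log2 units) of 15 members (rows) under quantile normalization (circles), median scaling (squares) and intensities as deposited (triangles), in vivo on the left and in vitro on the right; filled symbols have an adjusted p below 0.05 (limma). The 4 falls at the top are filled under all 3 scalings in both panels and Setdb1 in the right one, while every triangle of the other 10 members is open and several lie left of 0.

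Genes of the same pathways outside the rule were called in both directions as well. Of the 10 COMPASS core subunits, the shared platform of H3K4 methyltransferases, 2 were higher and 3 lower in vivo and 2 were higher and 4 lower in vitro, with a median of -0.80 and -1.45 beside 0.26 and 0.13 over all genes. For this and the lists that follow, the shares over all genes are the 18.3% higher and 12.3% lower in vivo and 18.4% and 12.9% in vitro given above. The largest falls were those of Ash2l (-3.92, adjusted p = 0.0231, and -4.41, adjusted p = 0.0194, limma), a subunit that stimulates the enzymes, Men1 (-2.26, adjusted p = 0.0389, and -3.29, adjusted p = 0.00809) and Wdr82 (-1.92, adjusted p = 0.00386, and -2.57, adjusted p = 0.000978). Omitting 1 array ended the in vivo calls of Ash2l (in vivo replicate 2 or 3), Men1 (6 different arrays) and Wdr82 (GV replicate 1), and the in vitro calls of Ash2l (adult in vitro replicate 1) and Men1 (adult in vitro replicate 1 or GV replicate 2).

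Of 8 tested PRC2 accessory subunits 2 were higher in each comparison and 0 lower, Aebp2 by 1.19 (adjusted p = 0.00808, limma) and 1.53 (adjusted p = 0.00276) and Mtf2 by 0.87 and 0.93. The Aebp2 call in vivo was lost without GV replicate 1 (adjusted p = 0.118), and those of Mtf2 without either GV array and several others. Of 8 H3K9 partners and readers 0 were higher and 1 was lower, Mphosph8, which reads methylated H3K9 (-2.60, adjusted p = 8.9e-06, and -1.78, adjusted p = 0.000269). Of 9 other methyltransferases 2 were higher in vivo and 1 in vitro, Smyd3 in both at 1.31 and 1.49. Of 7 other jumonji demethylases 1 was higher in vivo and 1 was lower in each comparison, the X-linked Phf8 (-2.69, adjusted p = 0.000362, and -3.38, adjusted p = 0.000152).

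Of 7 partners of the demethylases and Prmt proteins, 3 were higher and 2 lower in vivo and 2 were higher and 2 lower in vitro. Glyr1, the cofactor of Kdm1b, stood at 8.97 and 9.38 in the GV arrays, 5.66, 5.92 and 6.50 in vivo and 6.52 and 6.26 in vitro, a difference of -3.15 (adjusted p = 4.26e-05, limma) and -2.78 (adjusted p = 0.000218). Its MII values were all far below GV, while Kdm1b itself was not called. Clns1a, a partner of Prmt5, fell by 1.95 and 1.30, and Rcor1, the partner of Kdm1a, differed by 1.22 and 1.63. Without GV replicate 1 the calls of Clns1a in vitro (adjusted p = 0.11) and Rcor1 in vivo (0.104) were lost, as was that of Clns1a in vitro without adult in vitro replicate 2 (0.0566). Of 5 tested genes of the S-adenosylmethionine cycle, which supplies the methyl donor, 1 was lower, Ahcy, which clears the by-product of methylation (-1.89, adjusted p = 0.0153, and -2.14, adjusted p = 0.0121), lost without either GV array in both comparisons (adjusted p 0.0615 to 0.0878) and in vitro also without adult in vitro replicate 2 (0.0725).

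Over these partner lists 10 of 53 tested genes (18.9%) were called higher and 8 (15.1%) lower in vivo, against 18.3% and 12.3% of all genes, and 7 (13.2%) higher and 9 (17%) lower in vitro, against 18.4% and 12.9%, shares near those of all genes. With intensities as deposited 0 of the 10 and 0 of the 7 rises were called, against 7 of the 8 and 9 of the 9 falls, with Wdr82 in vivo the exception (adjusted p = 0.076). Median scaling kept 3 of 10 and 2 of 7 rises, and 8 of 8 and 9 of 9 falls.

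Summed after quantile normalization, marker signal of other cells was higher in adult in vivo MII than in GV arrays. For leukocyte and for cumulus and granulosa genes this was also so in adult in vitro MII. These sums were not computed from the intensities as deposited, and the number of cumulus and granulosa genes reaching the filter level was not higher at MII. The sum of 10 leukocyte genes was 77.0 to 81.6 in the GV arrays, 342 to 651 in adult in vivo MII and 151 to 172 in adult in vitro MII. Of these genes 4 were at or above the filter level in GV against 8 to 10 in adult in vivo MII. The sum of 6 oviduct genes was 53.6 to 54.3, 147 to 468 and 27.9 to 106, and that of 12 cumulus and granulosa genes 175 to 203, 235 to 364 and 287 to 316. At or above the filter level were 3 to 4, 4 to 5 and 2 to 4 of the oviduct genes. For cumulus and granulosa genes these counts were 9 to 11, 7 to 9 and 6 to 11, and in vitro 4 to 5 leukocyte genes were. The sum of 12 oocyte genes was 7.281e+04 to 8.552e+04, 3.484e+04 to 4.064e+04 and 2.877e+04 to 3.837e+04. No marker was at 0 in any array. The part of the other cells in the members' differences was not tested.

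The next question was whether oocytes matured in vivo and in vitro differed. In adults 0 of 48 members were called by limma, as were 0% of all genes, and 6 members (12.5%) had an unadjusted p below 0.05 against 8.14% of genes. The members with the smallest p-values were Setd3, at 2.44 (SE 0.84, adjusted p = 0.512), Kdm4a, at 2.45 (SE 0.85, adjusted p = 0.523), and Setdb2, at 0.88 (SE 0.35, adjusted p = 0.573), all in vivo minus in vitro. The groups overlapped for Setd3 and Kdm4a, since the dim in vivo array, at 2.84 for Setd3 and 4.39 for Kdm4a, was below in vitro replicate 1, at 3.24 and 4.50. The leukocyte and oviduct sums given above were higher in adult in vivo than in adult in vitro MII, and their part in these differences was not tested. Without the dim arrays Setd3 was called, at 3.04 (adjusted p = 0.0293), with 1 adult in vitro array left, so that its spread was taken from the other groups.

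At d26 also 0 members were called by limma (0.0582% of all genes), with 4 (8.33%) at an unadjusted p below 0.05 against 7.27% of genes. Setdb1 stood at 8.82 and 9.42 in vivo and 8.51, 7.03 and 8.37 in vitro, a difference of 1.15 (SE 0.50, adjusted p = 0.699). Kdm8 differed by 1.39 (SE 0.61, adjusted p = 0.702) and Suz12 by -0.52 (SE 0.24, adjusted p = 0.718). The Setdb1 values did not overlap, which held for 20.1% of all tested genes, and its lowest in vitro value came from a dim array. The leukocyte sum was 168.5 to 239.8 in d26 in vivo and 136.2 to 195.3 in d26 in vitro MII, and the oviduct sum 103.7 to 121.6 and 55.4 to 105.8. The ratio of the 3′ to the 5′ control probe set of Gapdh is a sign of RNA quality and of how far the amplified RNA reaches. It was 82.3 and 68.0 in the d26 in vivo arrays and 12.6, 16.5 and 26.8 in the d26 in vitro arrays, without overlap. In the arrays of the other groups it was 2.27 to 26.6. The lowest were the dim adult MII arrays, at 3.31 in vivo and 2.27 in vitro. The GV arrays stood at 13.7 and 17.7, and the other adult MII arrays at 19.7 and 20.5 in vivo and 20.6 in vitro. The part of these sums and ratios in the d26 differences, and in the values over adult and d26 that follow, was not tested. Nor was that of the ratio in the adult differences from GV.

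Averaged over adults and d26, in vivo minus in vitro, 0 members were called (0.249% of all genes), and 9 (18.8%) had an unadjusted p below 0.05 against 13.5% of genes. The 3 members with the smallest p were Setdb1 (1.18, SE 0.35, adjusted p = 0.217, limma), Setdb2 (0.82, SE 0.25, adjusted p = 0.228) and Ehmt1 (0.84, SE 0.32, adjusted p = 0.332). All 3 are H3K9 methyltransferases, but none was called and the group was not tested as a set. The other tested H3K9 methyltransferase, Suv39h2, was not among them, and in adults it differed from GV by 1.69 in vivo and 1.84 in vitro. Setdb2, a relative of Setdb1, stood at 7.44, 7.61 and 7.70 in adult and 7.46 and 7.50 in d26 in vivo MII. In vitro it stood at 7.08 and 6.33 in adult, 6.51, 7.17 and 6.51 in d26 and 6.68, 6.70 and 6.76 in d20 MII. All 5 in vivo arrays were above all 8 in vitro arrays, although the difference did not pass the adjusted threshold. The share of all genes separated in this way was not counted.

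Ehmt1, which with Ehmt2 dimethylates H3K9, stood at 8.80, 10.08 and 10.11 in adult and 9.36 and 10.60 in d26 in vivo MII, against 9.24 and 8.47 in adult and 9.47, 8.58 and 9.28 in d26 in vitro MII, and the groups overlapped. Without adult in vivo replicate 1, a dim array, Setd3 was called in the averaged comparison at 2.05 (adjusted p = 0.0365). Whether the in vivo minus in vitro difference depended on age was tested directly, and 0 members were called (0% of all genes; limma), with 1 member (2.08%) at an unadjusted p below 0.05 against 3.48% of genes. The smallest p was that of Kdm4a, whose in vivo minus in vitro difference changed by -3.16 from adults to d26 (SE 1.20, adjusted p = 1).

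**Figure D5:**
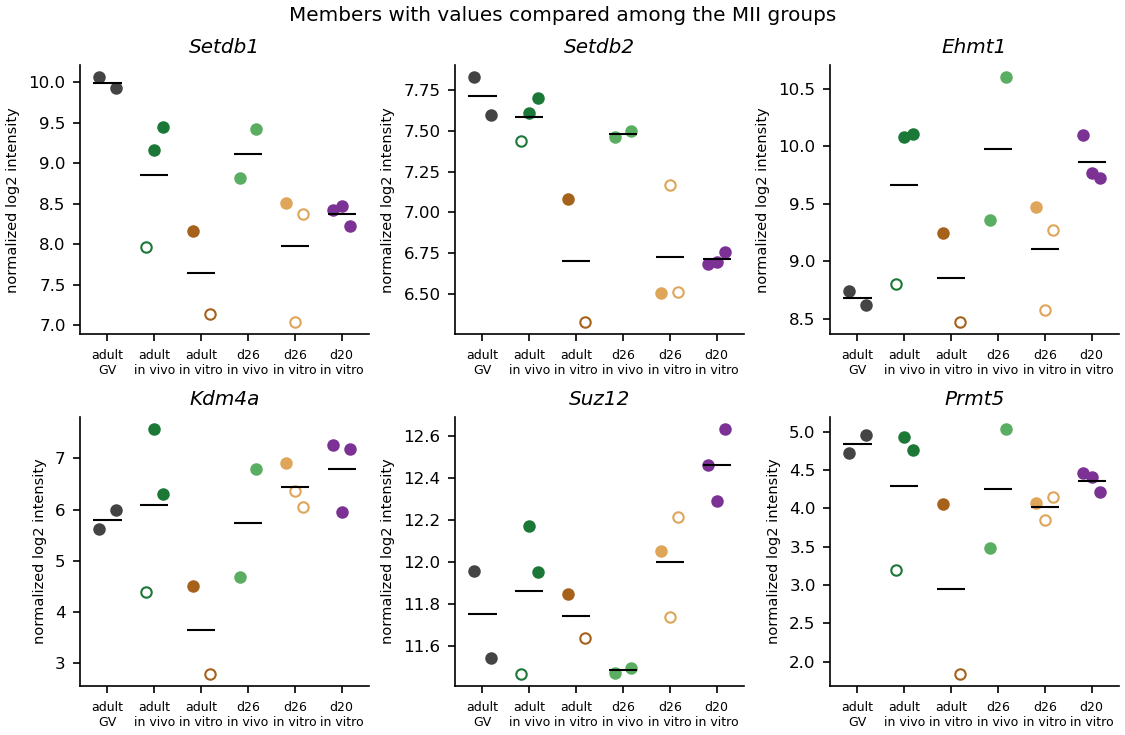
Normalized log2 intensity (y axis, a separate scale for each gene) of 6 members in each array of the 6 groups (x axis); open points are the 4 dim arrays and bars are group means. For Setdb2 the 5 in vivo MII arrays, at 7.44 to 7.70, lie above all 8 in vitro MII arrays. That difference was not called, and the share of all genes separated in this way was not counted. For Kdm4a and Prmt5 the lowest values come from adult in vitro replicate 2, a dim array.

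The last question was whether in vitro matured oocytes differed with the age of the female. Between d20 and adult 0 members were called by limma (0.0333% of all genes), with 11 (22.9%) at an unadjusted p below 0.05 against 19.2% of genes. Setd3 stood at 6.71, 6.80 and 6.43 at d20 and 3.24 and 1.88 in adults, a difference of 4.09 (SE 0.84, adjusted p = 0.103) with no overlap. Prmt3 stood at 8.26, 8.48 and 8.01 against 9.76 and 9.64, a difference of -1.45 (SE 0.35, adjusted p = 0.125), and Kdm4a at 7.26, 5.94 and 7.18 against 4.50 and 2.79, a difference of 3.16 (SE 0.85, adjusted p = 0.15). The 3 genes did not overlap between the groups, which held for 25 of 48 members and 43.5% of all tested genes. Of the 2 adult arrays 1 was dim. Without the dim arrays, which again left 1 adult in vitro array with its spread taken from the other groups, Setd3 (3.65, adjusted p = 0.0067) and Prmt3 (-1.44, adjusted p = 0.047) were called, and so they were without adult in vivo replicate 1 (4.14, adjusted p = 0.0137, and -1.43, adjusted p = 0.0487). Without adult in vitro replicate 1, which left 1 array assumed to vary like the other groups, Setd3 (4.79, adjusted p = 0.0287) and Nsd1 (3.06, adjusted p = 0.0288) were called.

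Between d26 and adult in vitro MII oocytes 0 members were called by limma (0% of all genes), and 4 (8.33%) had an unadjusted p below 0.05 against 7.36% of genes. Kdm4a, at 6.90, 6.37 and 6.06 in d26, differed by 2.80 (SE 0.85, adjusted p = 0.468). Setd3, at 5.62, 4.42 and 5.77 in d26, differed by 2.71 (SE 0.84, adjusted p = 0.477), and Kdm2b by -0.74 (SE 0.27, adjusted p = 0.592). Both d26 sets of values lay above the adult in vitro arrays, with 2 dim arrays of 3 at d26 and 1 of 2 in adults. These groups did not overlap in 16% of all tested genes.

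Between d20 and d26 0 members were called by limma (0% of all genes), with 6 (12.5%) at an unadjusted p below 0.05 against 12% of genes. Setd4 stood at 9.96, 9.49 and 10.31 at d20 and 9.11, 8.38 and 9.11 at d26, a difference of 1.05 (SE 0.33, adjusted p = 0.414). Its arrays did not overlap between the groups, which held for 19.6% of all tested genes. Prmt3 differed by -0.98 (SE 0.31, adjusted p = 0.414) and Setd6 by -1.19 (SE 0.39, adjusted p = 0.414). The median member was 0.33 higher at d20 than at d26, against 0.07 for all genes. Outside the alternative settings, no member was called in any of these comparisons among MII groups, PRC2 core genes, Kdm1b, Kmt2b and Setd2 included. Of all genes 0% to 0.249% were called in them.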

How the data were processed

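The deposited intensities, 1 array per pool, were made by the authors with MAS5, per the submitters' processing notes. No source used here gives its version or scaling target. Per the labels' protocols, oligo(dT) beads captured the RNA, which was amplified in a pair of cycles, so the levels are those of RNA captured by its poly(A) tail. The 64 control probe sets of 45101 were left out. The log2 intensities of the other 45037 were quantile normalized over 15 arrays, because array medians ran from 5.08 to 25.3, and the 22519 in the upper 50% by mean (normalized log2 of at least 3.07) were tested. A model with 1 coefficient for each of 6 groups was fitted with limma 3.58.1 in R 4.3.3 (9 residual degrees of freedom, variances with an intensity trend, Benjamini-Hochberg adjustment within each comparison). It was also run on simulated data that had no differences in brightness and no normalization step, so that run does not bear on the choice of scaling.

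Symbols came from the platform annotation, in which 34945 of the non-control probe sets had 1 symbol, 932 several and 9160 none; 34741 of the first were found in the GRCm38.p6 gene table by identifier. The members and gene lists were chosen with earlier results of these data known. The values in each array are given for a fixed list of 22 members and, per comparison, for up to 10 called members in each direction that differed by at least 1 without overlapping arrays, or for the 3 smallest p-values. Replicates were numbered in record order. The number of arrays limits the precision. Alternatives were intensities as deposited, median scaling, other filters, a pseudocount of 16, the compared arrays alone, no trend, array weights, no dim arrays, the mean over a gene's probe sets, and leaving out each array.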

Additional observations from a re-analysis of the deposited data

How the results depend on the processing

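The falls of Setd4 and Kdm2b from GV to MII kept their direction and call under every alternative run in both comparisons. For the counts that follow, shares of all genes were not counted with array weights, without 1 array or, among MII groups, without the dim arrays. Whether the counts in those settings are particular to the members cannot be told. Counts of members called higher in vivo, 15 as reported, were 0 as deposited, 3 with median scaling, 23 with array weights and 8 with the mean over a gene's probe sets, and 11 to 16 when 1 array was left out. In vitro, 15 as reported, they were 0, 4 and 7 as deposited, with median scaling and with the gene mean, and 12 to 16 without 1 array. Members called lower in vivo, 4 as reported, were 2 with the gene mean and 3 to 4 without 1 array; in vitro, 5 as reported, they were 9 as deposited, 8 with median scaling and 4 to 7 without 1 array. For in vivo against in vitro in adults 1 member was called without the dim arrays, and for the average over ages 0 to 1 without 1 array. For d20 against adult 1 was called with array weights, 2 without the dim arrays and 0 to 2 without 1 array.

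As deposited, the direction reversed in vivo for Kmt2e (-0.034), Prmt1 (-0.14), Suv39h2 (-0.080) and Kmt5a (-0.19). In vitro it reversed for Kdm3a (-0.32), Kmt2e (-0.85), Kdm3b (-0.84), Suv39h2 (-0.87), Kdm5c (-0.73), Dot1l (-1.16), Setd6 (-0.66), Kdm6a (-0.45), Kmt5a (-1.20), Kdm1a (-0.90) and Prmt1 (-1.24). The GV arrays were the brightest, and the alternative keeps that difference. With the mean of all probe sets, the in vitro direction reversed for Setdb1 (0.25), Setd1b (-1.41) and Suz12 (1.82), whose probe sets differed among themselves. For all of these changes the cause was not tested. No paired analysis was possible because replicates were numbered in record order and the numbers pair no arrays. Where a dim array is 1 of 2 or 3 in a group, low levels have little precision.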
